A study of Mus musculus with 6 samples.

Results

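The genes described here are 36 regulators of mesoderm and endoderm, of the T-box, GATA, primitive streak and gut families, chosen by symbol from the 37991 gene IDs of the count table, and all 36 were found. Their transcripts were counted in PGCLCs, cultured mouse cells that resemble newly specified primordial germ cells and are induced from embryonic stem cells through an epiblast-like state. The 3 Ezh2 KO libraries (genotype Ezh2-/-, CreERT2) came from aggregates to which 4-hydroxytamoxifen in ethanol had been added (1 µl of a 1 mM stock to 10 ml of medium), and the 3 Ctrl libraries (genotype Ezh2f/f, CreERT2) from aggregates given ethanol alone. Both groups shared the C57BL/6 background, the floxed Ezh2 alleles of the starting line, the tamoxifen-activated Cre, the medium (500 ng/ml BMP2, 100 ng/ml SCF, 50 ng/ml EGF and 1000 U/ml LIF) and the time of sampling, day 4, when cells were dissociated and sorted. Because Ctrl cells did not receive 4-hydroxytamoxifen, loss of Ezh2 and exposure to that compound cannot be told apart, and no label says whether the replicates were separate inductions, so p-values measure only the spread between these samples.

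PRC2, the polycomb complex that trimethylates lysine 27 of histone H3 (H3K27me3), relies mostly on Ezh2 for its catalysis, and silent developmental regulators with CpG-rich promoters are classic carriers of that mark in embryonic stem cells. Germ cells are induced in the embryo by BMP signals beside the primitive streak, where T, Eomes and Mixl1 open the mesoderm and endoderm programmes, and germ cell precursors then shut such somatic programmes down. The comparison asks whether these lineage regulators stood at another level in PGCLCs of the Ezh2 KO label. They are described as 11 streak genes, 16 genes of later mesoderm and 9 endoderm genes.

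Promoter windows of 5 regulators are shown as examples. Eomes and Hhex were among the best read genes, and Gsc had every Ezh2 KO library below every Ctrl library. Twist1 and Hand2 were nearly or wholly unread in Ezh2 KO, as was Prrx1, whose window is not shown. Sequences are from RefSeq on GRCm38.p6, 250 bases before to 50 after the annotated start, read 5′ to 3′ along the gene, with each CpG in capitals. The windows are chr9:118477939-118478238 on the plus strand for Eomes, chr12:104473187-104473486 on the minus strand for Gsc, chr19:37434591-37434890 on the plus strand for Hhex, chr12:33957421-33957720 on the plus strand for Twist1, and chr8:57320733-57321032 on the plus strand for Hand2.
Eomes: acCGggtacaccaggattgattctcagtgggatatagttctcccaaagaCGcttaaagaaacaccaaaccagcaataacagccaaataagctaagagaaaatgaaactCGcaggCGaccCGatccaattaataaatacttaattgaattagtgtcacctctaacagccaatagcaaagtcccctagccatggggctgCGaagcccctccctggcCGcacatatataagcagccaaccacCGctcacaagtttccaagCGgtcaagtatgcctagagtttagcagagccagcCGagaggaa
Gsc: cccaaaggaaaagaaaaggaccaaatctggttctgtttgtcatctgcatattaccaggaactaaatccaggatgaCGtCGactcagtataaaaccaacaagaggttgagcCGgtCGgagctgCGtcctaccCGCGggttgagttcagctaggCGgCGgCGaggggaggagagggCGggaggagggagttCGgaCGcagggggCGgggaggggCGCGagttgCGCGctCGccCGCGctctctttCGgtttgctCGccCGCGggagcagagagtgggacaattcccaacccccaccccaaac
Hhex: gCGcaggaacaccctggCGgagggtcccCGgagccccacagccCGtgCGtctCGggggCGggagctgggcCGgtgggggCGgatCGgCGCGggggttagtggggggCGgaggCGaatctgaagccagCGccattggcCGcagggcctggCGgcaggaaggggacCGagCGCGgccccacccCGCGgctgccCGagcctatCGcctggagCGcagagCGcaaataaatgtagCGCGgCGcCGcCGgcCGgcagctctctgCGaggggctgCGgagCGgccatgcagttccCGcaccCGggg
Twist1: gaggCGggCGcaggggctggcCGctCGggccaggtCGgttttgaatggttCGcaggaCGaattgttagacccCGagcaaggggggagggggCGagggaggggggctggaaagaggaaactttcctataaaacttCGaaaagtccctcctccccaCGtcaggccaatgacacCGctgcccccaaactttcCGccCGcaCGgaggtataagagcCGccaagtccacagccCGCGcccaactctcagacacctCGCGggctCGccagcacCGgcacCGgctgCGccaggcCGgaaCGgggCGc
Hand2: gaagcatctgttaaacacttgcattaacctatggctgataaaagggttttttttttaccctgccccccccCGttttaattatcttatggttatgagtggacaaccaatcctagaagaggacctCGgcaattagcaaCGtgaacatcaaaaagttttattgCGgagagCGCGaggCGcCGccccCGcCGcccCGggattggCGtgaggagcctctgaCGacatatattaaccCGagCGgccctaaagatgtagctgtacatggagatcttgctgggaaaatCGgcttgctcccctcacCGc
These windows hold 10 CpGs in Eomes, 25 in Gsc, 37 in Hhex, 27 in Twist1 and 17 in Hand2, against a median of 7 over all 32851 windows of the RefSeq table.

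A window was in that table for 24 of the 36 regulators, 26 windows in all. Their median number of CpGs was 10.5 (range 4 to 37), and 46.2% of them had a ratio of observed to expected CpG above 0.6, against 35.8% of all windows. The regulators fell on both sides of that ratio in each set, with 4 of 9 streak windows, 6 of 11 of later mesoderm and 2 of 6 of endoderm above it. Each window shown was above it, from 0.607 in Eomes to 0.934 in Gsc. The window of Prrx1, which is not shown, held 6 CpGs at a ratio of 0.36. The T-box core GGTGTGA, searched on both strands, was in 1 member window, that of Mesp1, or 3.85% of member windows and 3.98% of all windows. The GATA core AGATAA was in 3 member windows, 11.5%, and in 11.2% of all windows.

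**Figure D1:**
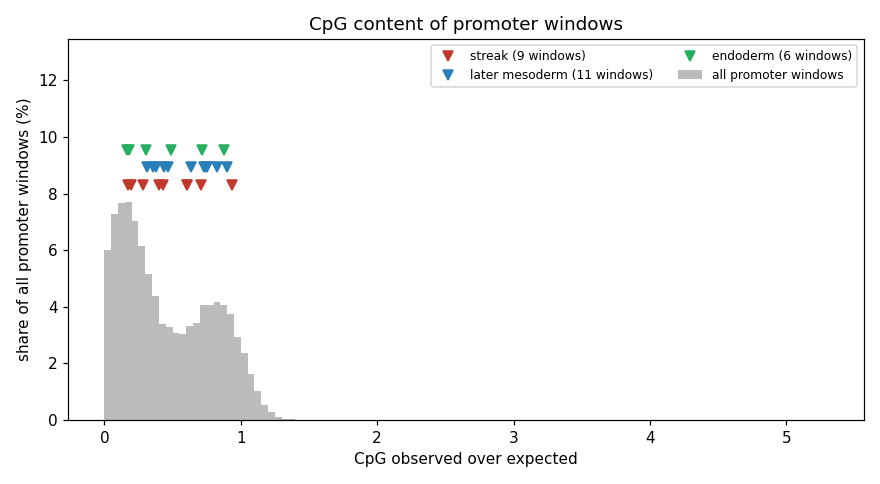
Ratio of observed to expected CpG in promoter windows (x axis), with grey bars for the share of all 32851 windows in each bin (y axis, %) and triangles for the windows of the regulators, 1 row per set at an arbitrary height. The 26 member windows are spread over the range of all windows, with 12 of them above 0.6.

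Total counts ran from 27072150 to 38643944 in Ezh2 KO libraries and from 27358959 to 49382146 in Ctrl libraries. Levels are CPM, read counts brought to a common library size after TMM scaling, and 3 counts, taken as the floor of detection, correspond to 0.0741 to 0.116 CPM in Ezh2 KO libraries and 0.0618 to 0.106 CPM in Ctrl libraries. Such floors cover counting error only. Ezh2 itself was at 40.8, 67.1 and 70.0 CPM in Ezh2 KO and at 91.8, 78.1 and 95.3 CPM in Ctrl, so every Ezh2 KO library was below every Ctrl library but far from 0 (log2 fold change -0.58 ± 0.23 SE, edgeR adjusted p = 0.976). The count is of the whole gene, and the deleted part was not measured separately here. Ezh2 KO replicate 2 and Ctrl replicate 1 lay at the ends (78.0 and -61.4) of a first principal component that held 55.5% of the variance. Ezh2 KO replicate 1 was at -35.5, on the side of Ctrl replicate 1, and the remaining libraries lay between -1.2 and 13.3. The quasi-likelihood test of edgeR, with Benjamini-Hochberg adjustment over 16420 genes and a threshold of 0.05, called 0 genes (0%), with 459 at an unadjusted p under 0.05. DESeq2 called 5 genes (0.0201%), DESeq2 with the replicate number as a block 50 (0.285%), and limma-voom 0, and none of these was one of the 36 regulators. The 12 germ cell markers were all read, with a summed level of 1830 to 2420 CPM in Ezh2 KO and 2230 to 2580 CPM in Ctrl. On average they ran from Prdm1, at 4.3 CPM in Ezh2 KO and 5.96 CPM in Ctrl, to the pluripotency gene Nanog, at 507 CPM in Ezh2 KO and 514 CPM in Ctrl. No other cell type was sequenced beside them, so the sum alone does not establish the labelled cell type. Of the 12 markers 0 were called, and 10 had a log2 fold change below 0, with a median of -0.29.

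The lineage regulators were scarce in PGCLCs of both groups. Summed over the 36 genes they stood at 36.9 ± 1.8 CPM in Ezh2 KO and 43.9 ± 13.7 CPM in Ctrl (SD, n = 3 each), and 5 of them (Eomes, Cdx1, Tcf15, Sox7 and Hhex) averaged at least 1 CPM. A further 3, Tcf21, Osr1 and Cer1, had no read in any library. Reads sufficed for the test in 16 genes, 6 of the streak, 5 of later mesoderm and 5 of endoderm, and 0 of the 16 were called by edgeR in either direction, where 0% of all genes were. None of the 16 reached an unadjusted p under 0.05, where 1.55% of all genes did as higher and 1.25% as lower. Per kilobase of exon, the level was highest for Cdx1 (3.81 CPM per kb in Ezh2 KO and 7.35 in Ctrl), then for Tcf15 (3.54 in Ezh2 KO and 3.25 in Ctrl), Eomes (3.00 in Ezh2 KO and 2.48 in Ctrl), Hhex (1.12 in Ezh2 KO and 1.25 in Ctrl) and Sox7 (0.643 in Ezh2 KO and 0.649 in Ctrl). This order was the same in both groups. Among Cdx1, Tcf15 and Eomes the differences in level per kilobase were within the spread of Cdx1 between libraries. In bulk RNA, fewer cells that express a gene and less RNA per cell cannot be told apart.

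**Figure D2:**
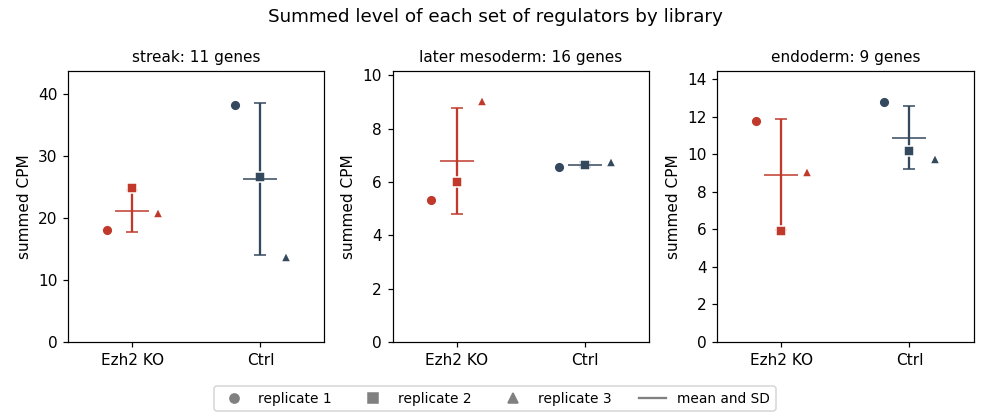
Summed CPM (y axis) of the streak, later mesoderm and endoderm genes in each library, with Ezh2 KO left of Ctrl, 1 symbol per replicate number, and bars for mean and SD. The groups overlap in each panel, and the widest spread is that of the streak genes in Ctrl, from 13.8 to 38.3 CPM.

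Among streak genes, the level was carried by Eomes, a T-box factor that opens the mesendoderm programme, and Cdx1, a caudal homeobox factor of the posterior streak, which together made up 88.6% to 92.0% of the summed streak level in Ezh2 KO libraries and 85.9% to 90.3% in Ctrl libraries. Eomes was read at 11.1, 12.4 and 13.9 CPM in Ezh2 KO and at 10.6, 11 and 9.34 CPM in Ctrl. All 3 Ezh2 KO libraries were thus above all 3 Ctrl libraries, but by less than the test resolves (log2 fold change 0.27 ± 0.22 SE, 95% interval -0.23 to 0.78, edgeR adjusted p = 0.976). The groups did not overlap, as higher, in 4.07% of all tested genes. Eomes was also the steadiest streak gene, with a ratio of highest to lowest library of 1.25 in Ezh2 KO and 1.18 in Ctrl.

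Cdx1 varied more between Ctrl libraries than between the group means. It was read at 4.97, 9.81 and 5.21 CPM in Ezh2 KO and at 24.1, 12.0 and 2.51 CPM in Ctrl, so that Ctrl held both the highest and the lowest library, 9.59-fold apart. The log2 fold change was -0.96 with a 95% interval of -2.53 to 0.62 (edgeR adjusted p = 0.976), and -0.13 without Ctrl replicate 1. Without Cdx1 the summed streak level was 13.2 to 15.6 CPM in Ezh2 KO and 11.3 to 14.7 CPM in Ctrl, so the wide spread of the Ctrl sum lay in this gene.

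Gsc, the homeobox gene of the organizer and anterior streak, was read at a low level, with every Ezh2 KO library below every Ctrl library. It stood at 0.321, 0.00 and 0.371 CPM in Ezh2 KO and at 0.845, 0.461 and 0.495 CPM in Ctrl, that is, in 12, 0 and 15 reads in Ezh2 KO against 41, 13 and 14 reads in Ctrl. Groups that did not overlap, as lower, were found in 4.03% of all tested genes, and the difference was not called (log2 fold change -1.31 ± 0.77 SE, edgeR adjusted p = 0.976). Gsc passed the filter on low counts in 3 Ctrl libraries but in 2 of Ezh2 KO, so its place among the tested genes, and in their median, is not independent of its direction. Mesp2, which sets somite boundaries, was at 0.615, 0.425 and 0.618 CPM in Ezh2 KO and at 1.63, 1.21 and 0.283 CPM in Ctrl. Its Ctrl libraries lay on both sides of Ezh2 KO (log2 fold change -0.92, 95% interval -2.28 to 0.45). Mixl1, a homeobox gene of nascent mesendoderm, averaged 0.589 ± 0.144 CPM in Ezh2 KO and 0.631 ± 0.440 CPM in Ctrl (SD, n = 3 each).

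T (brachyury), the T-box gene that marks the whole streak, averaged 0.331 ± 0.483 CPM in Ezh2 KO and 0.316 ± 0.0715 CPM in Ctrl, but these near-equal means hide a split, for which its libraries were singled out after the values were seen. It had 3, 23 and 1 reads in Ezh2 KO, or 0.0802, 0.888 and 0.0247 CPM, and 15, 11 and 7 reads in Ctrl, or 0.309, 0.390 and 0.248 CPM. Ezh2 KO replicate 2, the library at the end of the first principal component, was thus above every Ctrl library and the other Ezh2 KO libraries were below every Ctrl library. The log2 fold change of T had a 95% interval of -2.36 to 2.25, and it was -2.52 without Ezh2 KO replicate 2 and 0.56 without Ezh2 KO replicate 3.

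Of the streak genes with too few reads for the test, Tbx6, which keeps paraxial mesoderm from a neural fate, had 21 reads over the Ezh2 KO libraries and 43 over the Ctrl libraries. Msgn1, a paraxial mesoderm factor that acts with Tbx6, had 7 reads in Ezh2 KO and 1 in Ctrl. Mesp1, the earliest cardiac mesoderm factor, had 2 in Ezh2 KO and 4 in Ctrl. Evx1, a posterior streak homeobox gene, had 4 in Ezh2 KO and 3 in Ctrl, and Cdx4, a caudal gene on the X chromosome, had 5 in Ezh2 KO and 8 in Ctrl. Every library of Tbx6 was above the floor of 3 counts. Over the 6 tested streak genes the log2 fold change had a median of -0.50 and was below 0 in 5, beside a median of 0.01 over all tested genes, of which 48.7% were negative. That streak median was -0.27 without Ctrl replicate 1. It was -1.30 without Ctrl replicate 3, in a fit with 7 streak genes, so that value does not cover the same 6 genes. Among the 5 genes below 0, T (-0.06) and Mixl1 (-0.08) lay above 0 with some single libraries left out, Mixl1 also with the replicate block.

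**Figure D3:**
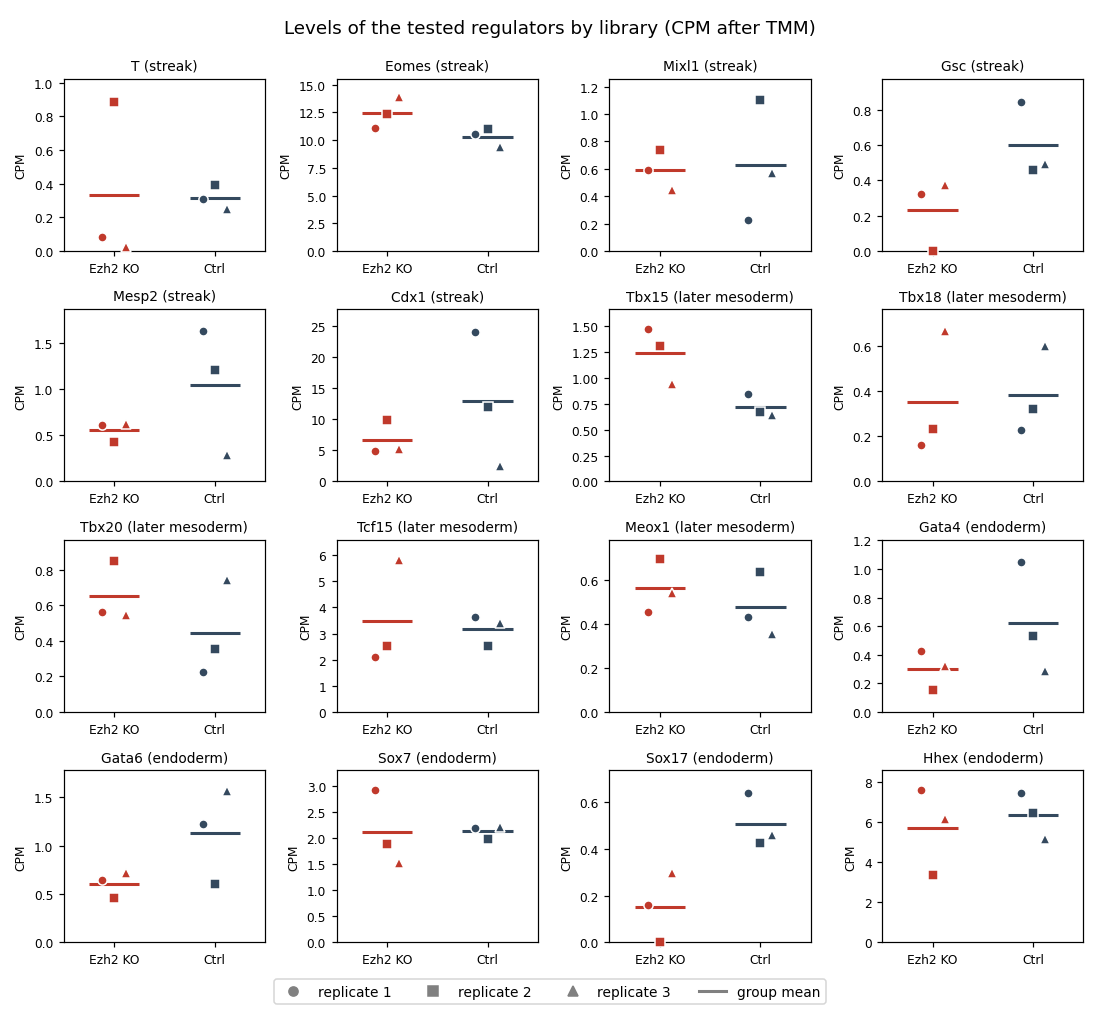
CPM (y axis of each panel, from 0) of the 16 tested regulators in each library, with Ezh2 KO left of Ctrl, 1 symbol per replicate number and a line at the group mean. Every Ezh2 KO library sits above every Ctrl library for Eomes and Tbx15 and below for Gsc and Sox17, and the other 12 genes overlap.

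In later mesoderm, none of the 5 tested genes was called by edgeR. Of these, 4 had a positive log2 fold change, Tcf15 among them at 0.13, which was 0.00 with the replicate number as a block, and the median was 0.24. Tbx15, a T-box gene of limb and skin mesenchyme, was read at 1.47, 1.31 and 0.939 CPM in Ezh2 KO and at 0.845, 0.674 and 0.637 CPM in Ctrl. Its groups did not overlap, and it was the largest difference of the tested mesoderm genes (log2 fold change 0.77 ± 0.36 SE, 95% interval -0.05 to 1.6, edgeR adjusted p = 0.976). Tbx20, a cardiac T-box gene, was at 0.562, 0.849 and 0.543 CPM in Ezh2 KO and at 0.227, 0.355 and 0.743 CPM in Ctrl, and its groups overlapped through Ctrl replicate 3. Meox1, a somite homeobox gene, was at 0.455, 0.695 and 0.543 CPM in Ezh2 KO and at 0.433, 0.639 and 0.354 CPM in Ctrl (log2 fold change 0.24, 95% interval -0.72 to 1.20). It was higher, by little, in the Ezh2 KO library of each of the 3 replicate numbers, which no label pairs.

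Tcf15, a bHLH factor of paraxial mesoderm that is also read in epiblast cells about to leave pluripotency, was the best read gene of later mesoderm. It stood at 2.09, 2.51 and 5.80 CPM in Ezh2 KO and at 3.63, 2.52 and 3.40 CPM in Ctrl, so that Ezh2 KO held both the highest and the lowest library, and its log2 fold change was 0.13, or -0.47 without Ezh2 KO replicate 3. Tbx18, a gene of somites and the epicardium, averaged 0.353 ± 0.274 CPM in Ezh2 KO and 0.383 ± 0.195 CPM in Ctrl (SD, n = 3 each), and replicate 3 was the highest in both groups.

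Of the 11 later mesoderm genes that were not tested, Twist1, Prrx1, Hand2 and Tbx2 had each Ezh2 KO library below each Ctrl library. Of the 15 untested regulators with at least 5 reads in all, these 4 were the ones without overlap as lower and 1 was without overlap as higher. Among all 6157 untested genes with at least 5 reads, 4.37% were without overlap as lower and 5.8% as higher. The mean level was higher in Ctrl for 12 of the 15, and for 45.9% of the 6157. Twist1, a bHLH factor of head and limb mesenchyme, had 0, 2 and 2 reads in Ezh2 KO and 4, 12 and 8 in Ctrl. Prrx1, a homeobox gene of limb mesenchyme, had 0, 1 and 2 reads in Ezh2 KO and 6, 14 and 3 in Ctrl. In both genes the highest library was Ctrl replicate 2.

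Hand2, a bHLH factor of heart and limb, had no read in any Ezh2 KO library and 3, 2 and 4 reads in Ctrl. Set against a floor of 3 reads over the Ezh2 KO group, its 9 Ctrl reads stood 2.97-fold higher for library size. That figure takes the Ctrl count as exact, so it is not a lower bound on the difference. Tbx2, a T-box repressor of heart and limb, had 3, 5 and 5 reads in Ezh2 KO and 12, 11 and 7 in Ctrl. In an edgeR fit with no filter on low counts, Hand2 (unadjusted p = 0.0137), Prrx1 (0.0158), Twist1 (0.0205) and the endoderm gene Sox17 (0.0449) were the 4 of 33 regulators with reads at an unadjusted p under 0.05. That is 12.1% as lower, where 1.54% of all genes in that fit were, and 0 as higher, where 1.38% were. None was called (edgeR adjusted p = 0.879 for each). Msgn1, named above, was the 1 untested regulator with each Ezh2 KO library above each Ctrl library.

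Nkx2-5, the cardiac homeobox gene, had 9, 1 and 2 reads in Ezh2 KO and 25, 11 and 1 in Ctrl, with its lowest library in Ctrl. Tbx4, the hindlimb T-box gene, had 20 reads over Ezh2 KO and 11 over Ctrl, and Tbx5, its forelimb and heart counterpart, had 1 in Ezh2 KO and 8 in Ctrl. Tbx1, of the pharynx, had 0 reads in Ezh2 KO and 4 in Ctrl, and Meox2, a homeobox gene of somites and limb muscle, had 2 in Ezh2 KO and 1 in Ctrl. With all 14 later mesoderm genes that had a read in the fit without a filter, the median log2 fold change was -0.64, or -0.24 with Hand2 and Tbx1 at the bound that 3 reads set, against 0.24 in the 5 tested genes. The summed level of the 16 genes, most of it Tcf15, was 6.80 ± 1.98 CPM in Ezh2 KO and 6.65 ± 0.101 CPM in Ctrl (SD, n = 3 each).

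**Figure D4:**
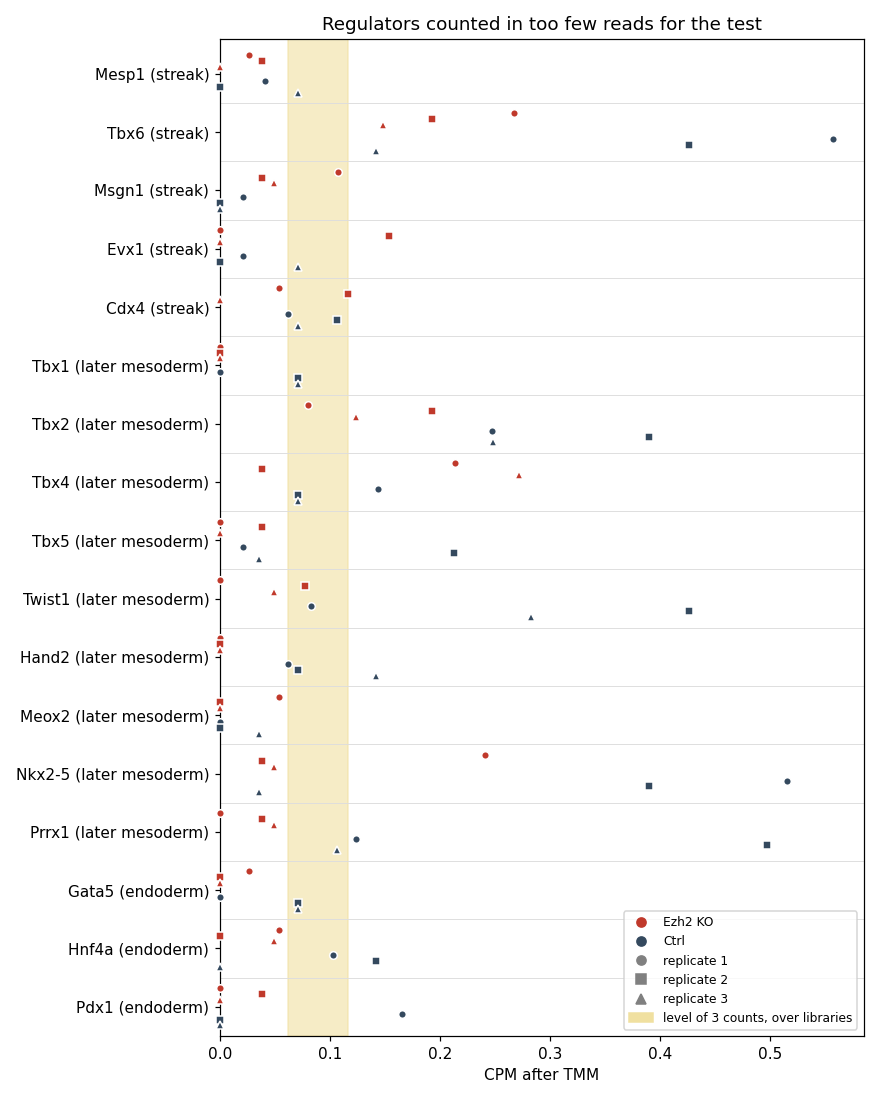
CPM (x axis) of the 17 regulators with reads but too few for the test, by library, with Ezh2 KO above Ctrl in each row and 1 symbol per replicate number. The shaded band spans the level of 3 counts over the libraries, 0.0618 to 0.116 CPM, and the Ezh2 KO libraries of Twist1, Prrx1 and Hand2 lie in or below it.

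Among endoderm genes the log2 fold change was below 0 in all 5 tested, where it was in 48.7% of all tested genes. Their median was -0.88, and the test called none of them. Of the 5, Sox7 (-0.01) and Hhex (-0.16) were near 0, and lay above 0 without Ezh2 KO replicate 2 (0.07 and 0.12). Sox17, an HMG-box factor of definitive endoderm, stood out with 0.160, 0.00 and 0.296 CPM in Ezh2 KO and 0.639, 0.426 and 0.460 CPM in Ctrl, or 6, 0 and 12 reads in Ezh2 KO against 31, 12 and 13 reads in Ctrl. The groups did not overlap (log2 fold change -1.63 ± 0.74 SE, 95% interval -3.34 to 0.08, edgeR adjusted p = 0.976). Sox17 passed the filter on low counts through its Ctrl libraries, 3 of which reached the minimum level against 1 of Ezh2 KO. Its place among the tested genes, in their count below 0 and in their median is thus not independent of its direction. In the mouse Sox17 is not required for germ cell fate, in contrast to the human gene.

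The GATA factors Gata4 and Gata6, which drive primitive and later endoderm and heart, both had lower means in Ezh2 KO, and neither difference was called. Gata6 was read at 0.642, 0.463 and 0.716 CPM in Ezh2 KO and at 1.22, 0.603 and 1.56 CPM in Ctrl, with an overlap that came from Ctrl replicate 2 (log2 fold change -0.88 ± 0.44 SE, edgeR adjusted p = 0.976). It was lower in the Ezh2 KO library of each of the 3 replicate numbers, but no label pairs the libraries by number. Gata4 was at 0.428, 0.154 and 0.321 CPM in Ezh2 KO and at 1.05, 0.532 and 0.283 CPM in Ctrl, where replicate 3 was below 2 of the Ezh2 KO libraries (log2 fold change -1.04 ± 0.59 SE, edgeR adjusted p = 0.976).

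The best read endoderm genes lay close to no difference. Hhex, a homeobox gene of anterior endoderm and liver that is also expressed in blood and endothelial precursors, was at 7.57, 3.36 and 6.13 CPM in Ezh2 KO and at 7.44, 6.46 and 5.13 CPM in Ctrl (log2 fold change -0.16, 95% interval -0.95 to 0.64). Its lowest level was in Ezh2 KO replicate 2 and its other 5 libraries lay between 5.13 and 7.57 CPM. Sox7, an HMG-box factor of parietal endoderm and vessels, was at 2.94, 1.89 and 1.53 CPM in Ezh2 KO and at 2.21, 1.99 and 2.23 CPM in Ctrl (log2 fold change -0.01, 95% interval -0.80 to 0.77). These intervals hold no more than a 2-fold difference in either direction, while those of Sox17, Gata4 and Gata6 hold larger decreases.

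The untested endoderm genes were near zero. Hnf4a, the nuclear receptor of visceral endoderm and liver, had 4 reads over Ezh2 KO and 9 over Ctrl. Pdx1, the pancreatic homeobox gene, had 1 in Ezh2 KO and 8 in Ctrl, all 8 from Ctrl replicate 1. Gata5, a GATA factor of heart and gut, had 1 in Ezh2 KO and 4 in Ctrl. Cer1, a secreted antagonist of Nodal and BMP made by anterior endoderm, had none. The endoderm median depended on Ctrl replicate 1 and Ezh2 KO replicate 2: it was -0.40 without that Ctrl library and -0.12 without both.

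Deviations from group means correlated at 0.583, 0.368 and 0.192 in libraries numbered 1, 2 and 3. The last value was below the 0.297 of Ezh2 KO replicate 2 with Ctrl replicate 3. With the replicate number as a block edgeR again called 0 of 16420 genes (0%) and 0 of the 16 regulators. In that fit 1 regulator was at an unadjusted p under 0.05 as higher, where 5.98% of all genes were, and 2 as lower, where 3.12% were. The higher one was Tbx15 (blocked log2 fold change 0.77, edgeR adjusted p = 0.524). The lower ones were Sox17 (-1.75, edgeR adjusted p = 0.492) and Gata6 (-0.85, edgeR adjusted p = 0.507).

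**Figure D5:**
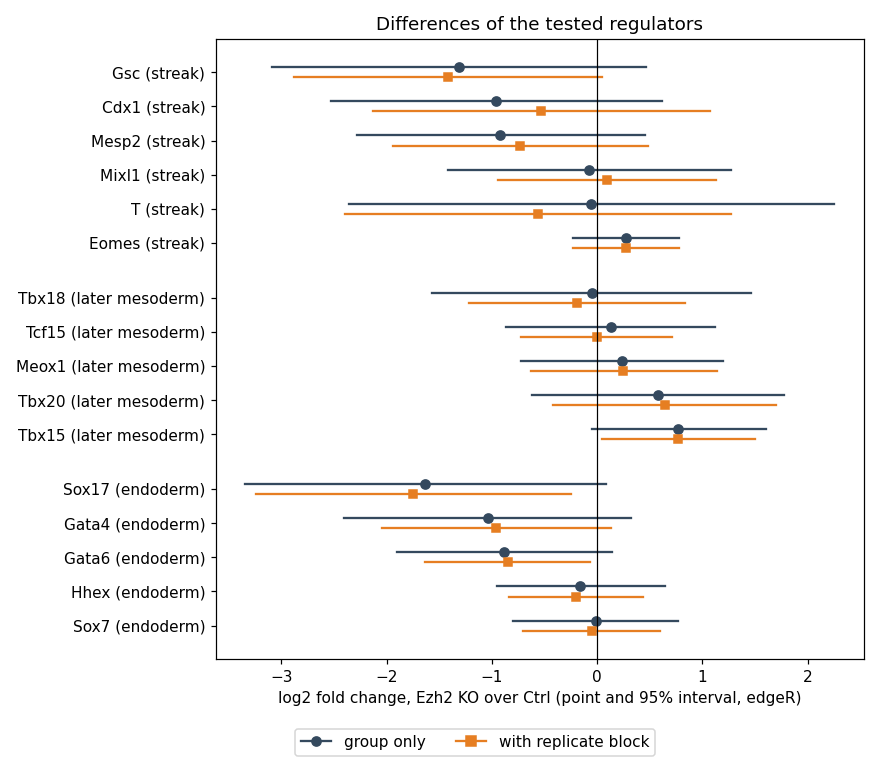
Log2 fold change of Ezh2 KO over Ctrl (x axis) with its 95% interval for the 16 tested regulators (y axis), fitted by group only (circles) and with the replicate number as a block (squares). Without the block each interval includes 0, and with it those of Tbx15, Gata6 and Sox17 do not, though no adjusted p passed.

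Genes that work downstream of or beside these regulators were read from wider lists, which share Cdx2 and Hand1. Of 21 other mesoderm genes 12 were tested and 0 called, with 8 negative and a median log2 fold change of -0.24. Their summed level was 255 to 346 CPM in Ezh2 KO and 186 to 287 CPM in Ctrl, nearly all from the Nodal target Lefty2, at 285 CPM on average in Ezh2 KO and 202 CPM in Ctrl (unadjusted p = 0.0499, edgeR adjusted p = 0.976), and Foxf1 and Myf5 had no read. The caudal gene Cdx2, which is also on the gut and trophoblast lists, had the smallest p of the 12. It was at 0.508, 0.270 and 0.346 CPM in Ezh2 KO and at 0.639, 0.922 and 0.991 CPM in Ctrl, with no overlap, as lower (log2 fold change -1.15 ± 0.42 SE, unadjusted p = 0.0247, edgeR adjusted p = 0.976). Foxc1, a forkhead gene of somites and head mesenchyme, was not tested, and had no read in Ezh2 KO and 5, 8 and 4 reads in Ctrl. Of 25 gut and visceral endoderm genes 13 were tested and 0 called, with 6 negative and a median of 0.12. Their sum was 258 to 377 CPM in Ezh2 KO and 233 to 330 CPM in Ctrl. Most of it came from Cldn6, Sparc (156 CPM on average in Ezh2 KO and 133 CPM in Ctrl) and Cldn7 (52.9 CPM in Ezh2 KO and 55.3 CPM in Ctrl). The tight junction gene Cldn6 averaged 93.0 CPM in Ezh2 KO and 55.3 CPM in Ctrl, with groups that did not overlap, as higher, as in 4.07% of all tested genes (log2 fold change 0.75, unadjusted p = 0.00994, edgeR adjusted p = 0.976). Beside Cdx2, the forkhead gene Foxa3 had an unadjusted p under 0.05 as lower, at 0.589 CPM on average in Ezh2 KO and 1.57 CPM in Ctrl, with overlap (log2 fold change -1.41, unadjusted p = 0.0450, edgeR adjusted p = 0.976). The definitive endoderm factor Foxa2 averaged 0.00 CPM in Ezh2 KO and 0.0137 CPM in Ctrl. Of blood and endothelium markers, 6 of 9 were tested and 0 called, with 2 negative, a median of 0.67 and a sum of 124 to 206 CPM in Ezh2 KO and 126 to 200 CPM in Ctrl. Most of that sum was Pecam1, which pluripotent cells also express. Of 8 trophoblast markers 8 were tested and 0 called, with 3 negative, a median of 0.11 and a sum of 204 to 359 CPM in Ezh2 KO and 137 to 447 CPM in Ctrl. Most of it came from Krt8 (115 CPM on average in Ezh2 KO and 112 CPM in Ctrl) and Krt18 (131 CPM in Ezh2 KO and 115 CPM in Ctrl). One trophoblast marker beside Cdx2, the Ets factor Elf5, had groups without overlap, as higher, at 1.17 CPM on average in Ezh2 KO and 0.549 CPM in Ctrl (log2 fold change 1.1, unadjusted p = 0.0327, edgeR adjusted p = 0.976). The part of these other cell types in the levels of the regulators was not tested.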

How the data were processed

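The authors deposited whole-number read counts per Ensembl gene for 6 libraries. The tools were, per the submitters' processing notes, CASAVA 1.8.4, Trimmomatic 0.33, TopHat2 2.0.11 and featureCounts, on mm9 and NCBIM37. Their settings, strand and annotation version: not given in the sources used here. With strand unknown, reads of Eomes, Evx1, Gata5, Gata6, Hand2, Sox17 and Tbx18 cannot be told apart from those of antisense genes that overlap their exons in GENCODE M21. Symbols (for 32919 of 37991 IDs) and exon lengths came from GENCODE M21, on a later build than the authors'. IDs without a symbol took 1.8% to 2.72% of a library's counts.

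Genes were kept by filterByExpr (minimum count 10; 16420 kept), scaled by TMM and tested two-sided with edgeR 4.0.16 (robust glmQLFit, group only) under R 4.3.3; standard errors derive from the F statistic. Alternatives used DESeq2 1.42.0, limma 3.58.1, other filters, the replicate block, libraries left out and a threshold of 0.10. The fits were tested on simulated data. No label pairs the libraries. Replicate numbers were taken as pairs for the block because deviations from group means correlated at 0.583, 0.368 and 0.192 in same-numbered libraries, over genes. Ezh2 KO replicate 2 with Ctrl replicate 3 reached 0.297, more than the replicate 3 pair, and the other differently numbered pairs were below 0. The pairing was thus inferred from these same data and is not established.

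The members and lists were chosen with earlier results of these data known. Values in every library are given for regulators of mean CPM of at least 1, of unadjusted p under 0.05, or among the 3 of smallest p in their set; other tested ones get group means and untested ones counts. T was added after its values were seen, as were the libraries of untested genes whose groups do not overlap and of Nkx2-5. Of the related lists at most 3 genes of smallest p are named, with Nanog, Pecam1, Sparc, Cldn7, Krt8, Krt18, Foxa2, Foxc1 and genes at 0 added after their values were seen.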

Additional observations from a re-analysis of the deposited data

How the results depend on the processing

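The count of all genes called was 0 in edgeR with DESeq2 size factors, without a filter, with the stricter filter (a CPM of 1 in any 3 libraries, and 20 counts on average), with the replicate block, at a threshold of 0.10 and with any library left out, and 0 in limma-voom; it was 5 in DESeq2 and 50 in DESeq2 with the replicate block. The count of regulators called was 0 in each of these. The log2 fold change of Ezh2 was -0.61 with the replicate block and -0.71 to -0.37 with 1 library left out.

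The median of later mesoderm, 0.24 in the reported fit, was -0.64 in DESeq2 and without a filter, and -0.74 in DESeq2 with the replicate block, fits that include 14 of its genes in place of 5. The endoderm median, -0.88 as reported, was -0.08 under the stricter filter, which keeps fewer genes. With libraries left out the medians ran from -1.15 to -0.12 for endoderm (-0.40 at most with 1 library out) and 0.02 to 0.46 for later mesoderm. The streak median ran from -1.30 (without Ctrl replicate 3) to -0.27 (without Ctrl replicate 1). These fits held 5 endoderm genes each, but 5 to 7 of the streak and 5 to 7 of later mesoderm. The medians of those 2 sets are thus not all over the same genes. Without both Ctrl replicate 1 and Ezh2 KO replicate 2, a setting chosen after seeing the data, the endoderm median was -0.12 and that of later mesoderm 0.02. The cause was not tested.

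Signs turned for 2 genes near 0 outside the settings that leave out a library: Mixl1 was at 0.21 in limma-voom, 0.09 with the replicate block and 0.10 in DESeq2 with it, and Tcf15 at 0.00, 0.00 and -0.02. With libraries left out, the log2 fold change took either sign for T (-2.52 to 0.56), Mixl1 (-0.69 to 0.60), Tbx18 (-0.35 to 0.40), Tcf15 (-0.47 to 0.43), Sox7 (-0.33 to 0.18) and Hhex (-0.42 to 0.24). T without both of those libraries, and Tbx18 without Ezh2 KO replicate 3, were too low to test. The other comparisons of a tested regulator with its main value, 189 of 211, kept their sign and 0 passed the threshold. At this depth genes below about 0.302 CPM are read in under 10 counts in a library of median size.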
